A study of Mus musculus with 81 samples.

Results

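Smad4, Mex3c and Mro lie in the same stretch of mouse chromosome 18 (GRCm38) and were followed here through the RNA measured at the long terminal repeat (LTR) loci inside their gene bodies. The genes were chosen from the RNA of F3 P6 somatic cells, where some of their loci stood apart between TBT and DMSO, so the values of that contrast are given as a description. The gene bodies of GENCODE held 33 of the 970384 LTR loci measured, with 5 in Mex3c (ENSMUSG00000037253.8, chr18:73573044-73592575, plus strand), 20 in Smad4 (ENSMUSG00000024515.13, chr18:73639009-73703780, minus strand) and 8 in Mro (ENSMUSG00000064036.15, chr18:73859385-73881333, plus strand). They are 3 of the 26161 genes that held an LTR locus.

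Smad4 encodes the common Smad, the partner that receptor-activated Smads of both the TGF-beta and the bone morphogenetic protein branches bind on their way to the nucleus. Mex3c encodes an RNA-binding E3 ubiquitin ligase of the MEX3 family, and Mro (maestro) encodes a HEAT-repeat protein known from the developing male gonad. In the fetal testis, Sertoli, Leydig and interstitial cells surround germ cells that have stopped dividing, and ligands of the TGF-beta family pass between these compartments.

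The study asked whether exposure of pregnant mice to tributyltin (TBT), an organotin, leaves a mark in testis cells of the exposed F1 fetuses and of F3 fetuses that were never exposed directly. F0 dams drank water with 50 nM TBT or with 0.1% DMSO, the carrier. All animals carried the OG2 transgene, in which the Pou5f1 promoter and distal enhancer drive EGFP, on a C57BL/6J background. Testes of E18.5 fetuses were sorted by flow cytometry into P4 and P5, both EGFP-positive germline cells that differ in side scatter, and P6, the EGFP-negative somatic cells. Poly(A) RNA of DMSO and TBT groups was sequenced in 5 and 7 F1 P4 libraries, 4 and 7 F1 P5 libraries, 5 and 7 F1 P6 libraries, and 4 and 5 libraries of each F3 population. Methylated DNA of P6 cells was captured in 3 DMSO and 4 TBT libraries of F1 and 5 DMSO and 7 TBT libraries of F3. The labels do not say which libraries come from separate litters, so p-values measure the spread between these libraries, which may be technical. The F1 germline libraries are numbered 45-3, 45-4, 45-5, 47-1, 47-3, 47-4 and 47-5 in TBT and 43-4, 43-5, 44-1, 44-3 and 48-4 in DMSO. Libraries with the same first number were entered as separate ones, and a dependence between them was not tested.

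Values are counts-per-million values (CPM) after the scaling of the authors, who scaled germline and P6 libraries of each generation in separate tables. The F1 libraries held 2824806 to 6304053 reads at LTR loci and the F3 P6 libraries 4104928 to 7760769, whereas F3 P4 and P5 libraries ran from 246520 to 8161548. The labelled populations were checked by 10 germline marker genes with an LTR locus, which summed to 7275 to 18006 CPM in F1 germline libraries and 16.2 to 38.5 CPM in F1 P6 libraries. The same sum was 127 to 15112 CPM in F3 germline libraries, lowest in the shallowest library, F3 P5 TBT 5, and Sertoli genes were above 1000 CPM in every P6 group mean. In bulk libraries, fewer cells of a type and less RNA per cell cannot be told apart.

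The 33 loci fell into 12 exons and introns. In Mex3c, a 66 bp MMERVK9C_I-int locus at chr18:73573024-73573089 overlapped exon 1 by 46 bp, and the other 4 loci, MLT1D, a pair of MLT1E1A (the first at chr18:73584583-73584930, the locus of the gene with the highest mean) and BGLII_B2, sat in intron 1. In Smad4, intron 1 held a pair of ORR1D1 loci (chr18:73680704-73680825 and chr18:73680595-73680724) and an ORR1C2 locus (chr18:73679766-73680112). The remaining Smad4 loci were 3 MER21B fragments in intron 2, 9 loci of ORR1C1, MT2A, MERVL_2A-int and RMER4B in intron 4, 4 in intron 8, and an MTC locus in intron 10 (chr18:73644392-73644795). Mro held RLTR48C (chr18:73867046-73867503) and RLTR20A4 (chr18:73868929-73869007) in intron 2, RLTR51A_Mm in intron 3 (chr18:73871458-73871641), a pair of MLT1F2 in intron 4 and RMER6A in intron 5 (chr18:73874673-73874870). Mro also held 2 ORR1C1 loci in exon 8, its last exon, of which the first (chr18:73878759-73878920, 162 bp) lay wholly in the exon and the second (chr18:73879000-73879190) overlapped it by 135 bp.

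Loci of the same intron carried nearly the same reads whatever their length. The value of an intron is thus not specific to any single LTR element in it, and the source of these shared reads was not tested. In Mex3c intron 1 a 48 bp locus averaged 37.5 reads per library and a 348 bp locus 37.6, and in 56 of 62 libraries all 4 loci had equal counts. In Smad4 intron 4 the loci ran from 143 to 963 bp, and their mean counts ran only from 39.98 to 41.0 reads. The loci of Mro exon 8 differed, with 50.5 reads at the first and 25.2 at the second. Counting identical profiles once, the 33 loci gave 15, 26 and 31 distinct profiles in P4, P5 and P6 cells of F1 and 18, 26 and 33 in those of F3. Each intron is therefore close to 1 measurement, unlike Mro exon 8, and counts of loci are not counts of independent readouts. The 4 loci of Smad4 intron 8 had equal counts in 31 of 62 libraries, with means of 59.9 to 61.8 reads. A gene sum adds every distinct profile, so introns with many near-copies weigh more in it, as with the 17 to 20 profiles of Smad4. From chr18:73500084 to chr18:73999999, the stretch that surrounds the genes, 229 loci were listed and 170 had a read. The 33 loci of the 3 genes held 49.3% of all reads there, loci in other genes 48.02% and loci outside genes 2.66%.

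In all 3 genes the P6 means were above the germline means of the same generation, a side-by-side reading without a test since the tables were scaled apart. In F1 DMSO libraries, Smad4 intron 10 averaged 8.14 CPM in P4, 9.44 in P5 and 27.8 in P6. Mex3c intron 1 averaged 3.75, 4.81 and 17.0 CPM in the same order. Mro had the widest range, with intron 5 at 1.42 CPM in P4, 6.05 in P5 and 39.7 in P6. By exon or intron in F1 P6 DMSO libraries, the highest means were those of Mro intron 3 at 40.7 ± 4.60 CPM and intron 5 at 39.7 ± 5.34 (SD, n = 5), which differed by less than their spread. The lowest was Mex3c exon 1 at 10.2 ± 1.90 CPM (SD, n = 5).

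In F3 P6 cells, the values that chose the genes were high in TBT at the first part of Mex3c, at intron 1 of Smad4 and at the last exon of Mro. At the MMERVK9C_I-int locus of Mex3c exon 1, the DMSO libraries had 7.73, 6.98, 7.19 and 9.26 CPM and the TBT libraries 18.4, 16.5, 12.9, 17.0 and 20.5. At the first ORR1D1 locus of Smad4 intron 1, DMSO libraries had 15.3, 13.1, 11.7 and 15.2 CPM and TBT libraries 28.1, 27.8, 25.7, 21.5 and 21.1. At the first ORR1C1 locus of Mro exon 8, DMSO libraries had 18.8, 9.91, 1.98 and 15.8 CPM and TBT libraries 48.7, 41.9, 28.8, 24.6 and 35.5. At each of these loci every TBT library lay above every DMSO library. The second ORR1C1 locus of Mro exon 8 had 7.54, 2.93, 0.496 and 7.49 CPM in DMSO and 22.8, 17.3, 17.9, 11.999 and 16.1 in TBT, again without overlap. The differences on the log2(value + 1 unit) scale, where a unit is the worth of 1 read, were 1.10 for Mex3c exon 1, 0.83 to 0.85 for the 3 loci of Smad4 intron 1, and 1.95 and 2.34 for the loci of Mro exon 8.

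**Figure D1:**
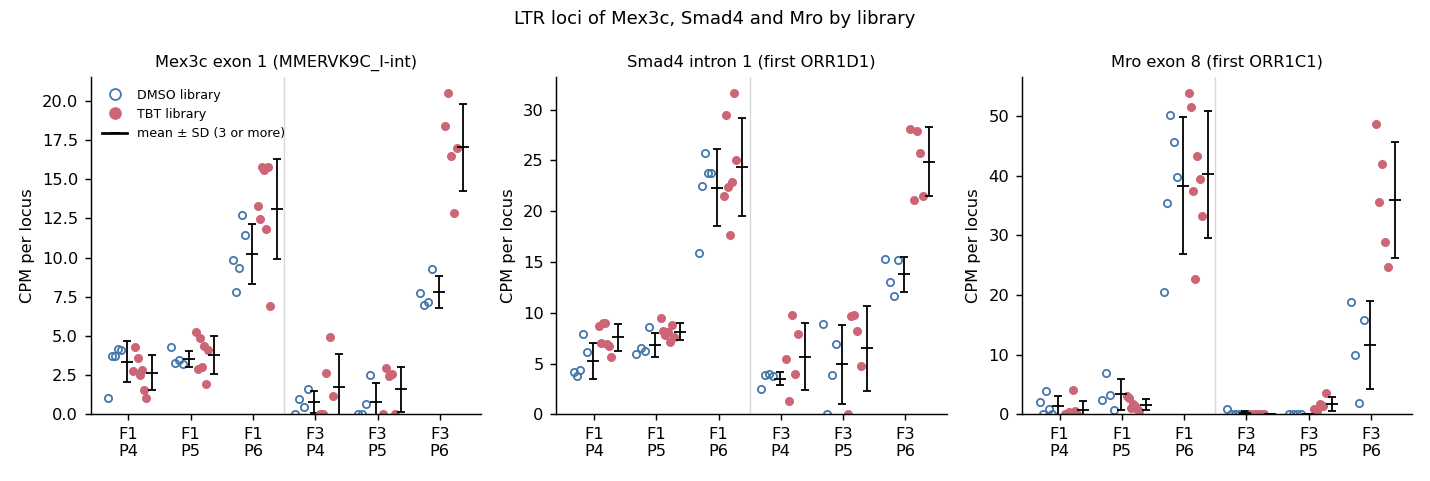
CPM at the Mex3c exon 1, first Smad4 intron 1 and first Mro exon 8 loci, with 1 point per library (open, DMSO; filled, TBT) and mean ± SD beside each group, cut at 0. In F3 P6 the TBT libraries reach from 12.9 to 20.5, 21.1 to 28.1 and 24.6 to 48.7 CPM, above all DMSO libraries, whereas the F1 P6 groups overlap.

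The rest of each gene differed less, or in the other direction. In Smad4, 2 of 3 loci of intron 2 and 3 of 4 of intron 8 also had every TBT library above every DMSO library, with log2 differences of 0.15 and 0.17 and of 0.23 to 0.29. The one with the largest difference, an MTD locus of intron 8 (chr18:73655765-73656008), ranged from 19.7 to 25.7 CPM in DMSO and 27.1 to 28.8 in TBT. Smad4 intron 10 had 23.8, 27.7, 29.8 and 22.1 CPM in DMSO and 25.4, 27.8, 29.1, 25.7 and 29.5 in TBT, and the groups overlapped. The first MLT1E1A locus of Mex3c intron 1 had 18.8, 17.1, 14.4 and 15.96 CPM in DMSO and 22.4, 19.9, 22.5, 18.2 and 18.1 in TBT, where the lowest TBT libraries lay within the DMSO range. By exon or intron, Mex3c intron 1 averaged 16.5 ± 1.80 CPM in DMSO and 20.2 ± 2.11 in TBT, beside 7.79 ± 1.03 and 17.0 ± 2.80 for exon 1 (SD, n = 4 and 5, as for the other F3 P6 means). Smad4 intron 1 averaged 13.8 ± 1.78 and 24.8 ± 3.37 CPM, and intron 2, the next one downstream, 25.2 ± 1.04 and 28.2 ± 1.45. Introns 4, 8 and 10 of Smad4 went from 17.7 to 19.7, from 23.4 to 28.0 and from 25.8 to 27.5 CPM. Mro intron 5 was lower in TBT, with 64.2, 41.0, 38.9 and 48.1 CPM in DMSO and 32.2, 31.1, 21.0, 22.6 and 34.0 in TBT and no overlap, a log2 difference of -0.77. RLTR51A_Mm in Mro intron 3 had 58.7, 40.7, 40.2 and 48.5 CPM in DMSO and 42.3, 38.0, 25.6, 22.3 and 33.5 in TBT, where 1 TBT library lay within the DMSO range. RLTR48C in Mro intron 2 ranged from 23.6 to 44.02 CPM in DMSO and 19.2 to 39.2 in TBT. Thus within Mro the last exon was higher and introns 2, 3, 4 and 5 had lower means in TBT, while the summed level of the gene was 218 ± 59.8 and 202 ± 53.8 CPM.

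**Figure D2:**
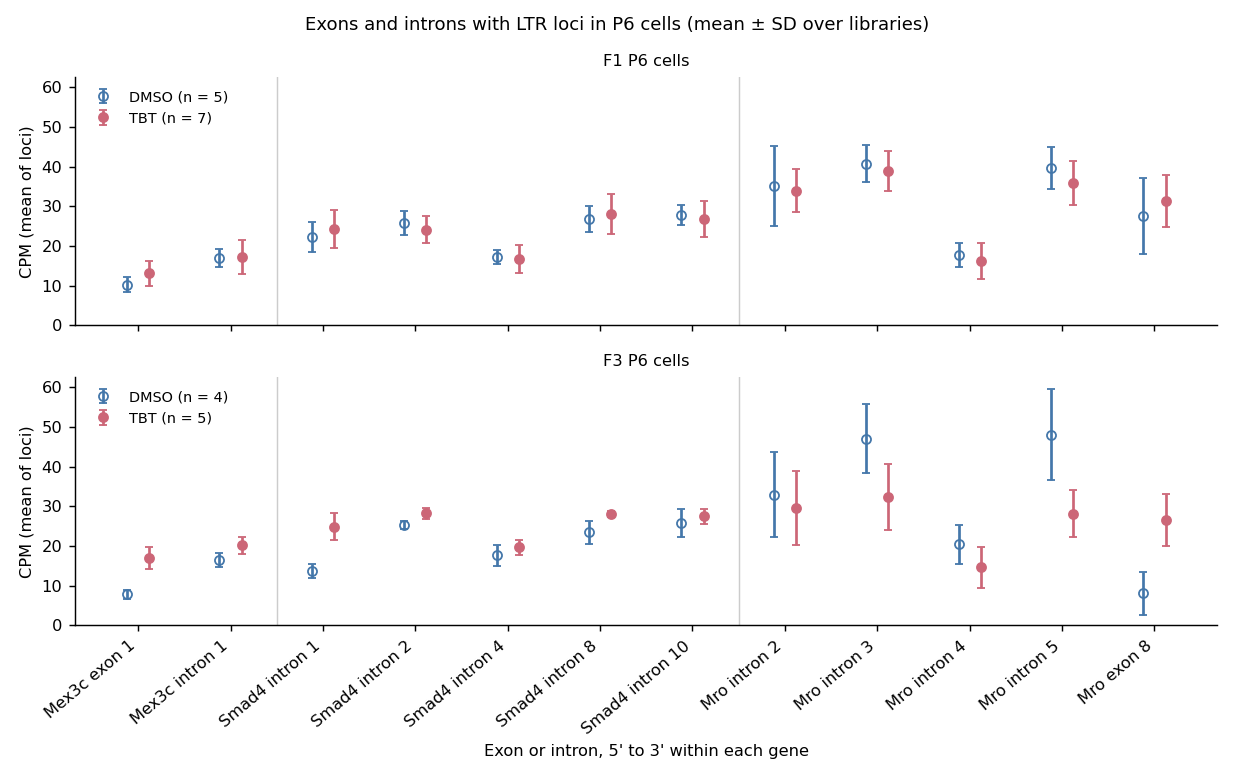
Mean CPM ± SD of each exon or intron that holds loci, 5' to 3' within each gene, in F1 P6 (top; 5 DMSO and 7 TBT libraries) and F3 P6 (bottom; 4 and 5). In F3, Mex3c exon 1, Smad4 intron 1 and Mro exon 8 lie higher in TBT and Mro intron 5 lies lower (28.1 against 48.1), and in F1 the bars of all 12 overlap.

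Over all loci tested in F3 P6 by limma, 21 of 104835, or 0.0200%, passed an adjusted p of 0.05 as higher in TBT. Among the 33 loci 5 did (Mex3c exon 1, the 3 of Smad4 intron 1 and the second of Mro exon 8), and nothing is read from that count, since this contrast chose the genes. Without TBT library 5, 6 or 7, 1 of the 33 passed, and nothing is read from that count either. Groups did not overlap at 12 of 33 loci, 11 with TBT above and 1 below, beside 2.90% of all tested loci. In gene sums, 1 of 11918 genes passed in F3 P6, or 0.00839%, and it was none of these 3. DMSO libraries 3 and 4 carried germline marker genes at 100.7 and 91.8 CPM, beside 13.3 and 7.20 CPM in DMSO 1 and 2 and 10.1 to 13.8 CPM in TBT. Of the 10 markers 9 were above 0 and Tex101 was at 0. DMSO 1 and 2 had 18.8 and 9.91 CPM at the first Mro exon 8 locus and 15.3 and 13.1 CPM at the first Smad4 intron 1 locus, values that chose the genes and from which nothing more is read. The 3 Leydig genes with a locus summed to 38.5 to 70.2 CPM in DMSO and 27.5 to 38.2 in TBT, and the 6 Sertoli genes averaged 1314 and 1299 CPM. The 3 interstitial genes summed to 1072 to 1405 CPM in DMSO and 1175 to 1518 in TBT. Among single marker genes, interstitial Pdgfra ran from 82.1 to 101.05 CPM in DMSO and 113.8 to 161.8 in TBT and Leydig Cyp17a1 from 12.6 to 24.1 and 7.03 to 12.1, both without overlap. Both are single genes picked from their lists, and the interstitial sum overlapped. How many of all gene sums do not overlap was not counted. The part of these cell types in the results was not tested.

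Because the 12 exons and introns of F3 P6 did not differ alike, the reads of the part that stood apart were also given as a share of its reads plus those of another part of the same gene in the same library, a measure free of library scaling. Each exon or intron entered by its first locus, so that the second ORR1C1 locus of Mro exon 8 is not in the shares. These shares were chosen after the F3 P6 values were seen. Mex3c exon 1 took 32.1 ± 3.61% of exon 1 plus intron 1 in DMSO and 45.6 ± 6.07% in TBT. Smad4 intron 1 took 35.3 ± 3.79% and 46.7 ± 3.34% of introns 1 plus 2. Mro exon 8 took 17.9 ± 8.98% of exon 8 plus intron 5 in DMSO, with a range of 4.85 to 24.7%, and 55.8 ± 3.92% in TBT, with a range of 51.1 to 60.2% (n = 4 and 5). The Mro shares of F1 P6 libraries were 48.3 ± 8.36% in DMSO and 52.2 ± 7.45% in TBT, from 33.6 to 58.9% in all, so the F3 DMSO libraries lay below every F1 P6 library.

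**Figure D3:**
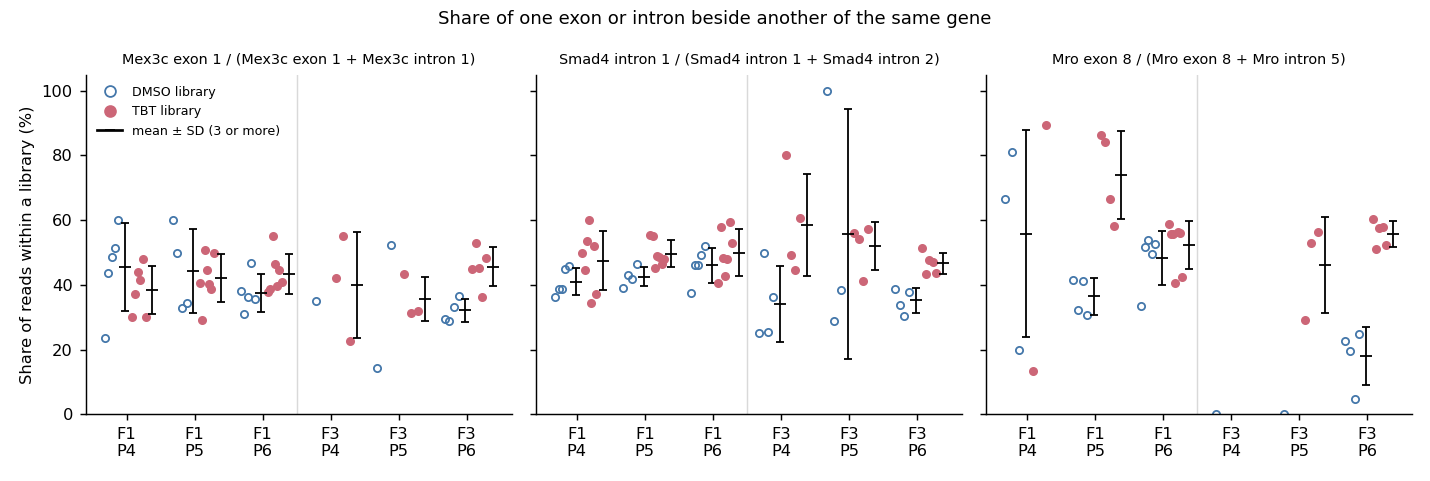
Share of reads (%) of Mex3c exon 1, Smad4 intron 1 and Mro exon 8 beside Mex3c intron 1, Smad4 intron 2 and Mro intron 5, with 1 point per library holding at least 10 reads and mean ± SD for 3 or more. The Mro share of F3 P6 is 4.85 to 24.7% in DMSO and 51.1 to 60.2% in TBT, and the F1 P6 groups overlap in all 3 panels.

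The F1 P6 cells, the same somatic population after direct exposure, showed no such separation. Mex3c exon 1 had 9.87, 7.81, 9.36, 12.7 and 11.5 CPM in DMSO and 6.94 to 15.8, median 13.3, in TBT. The first ORR1D1 locus of Smad4 had 15.9, 22.5, 25.7, 23.7 and 23.8 CPM in DMSO and 17.6 to 31.6, median 22.9, in TBT. The first ORR1C1 locus of Mro exon 8 had 20.5, 35.4, 50.2, 45.7 and 39.8 CPM in DMSO and 22.7 to 53.8, median 39.4, in TBT. The groups overlapped at all 33 loci, beside 0.317% of all tested loci without overlap. By limma, 0 of 33 loci passed, where 3 of all 88037 loci tested did, or 0.00341%, and the lowest adjusted p among the 33 was 0.999. The second ORR1C1 locus of Mro exon 8 had the only unadjusted p under 0.05, with a log2 difference of 0.56 in TBT. The gene sums differed by 0.04 for Mex3c, 0.00 for Smad4 and -0.02 for Mro on the log2 scale, each with an adjusted p of 0.999 by limma, where 3 genes in all, or 0.0257%, passed. In exact two-sided permutation tests of the shares, F1 P6 TBT and DMSO differed by 5.75 percentage points for Mex3c (p = 0.131), 3.82 for Smad4 (p = 0.343) and 3.92 for Mro (p = 0.414). After Benjamini-Hochberg adjustment over the 12 share tests run, these exact p-values were 0.394, 0.589 and 0.621. Whether the TBT effect differed between F1 and F3 was not tested, since the F3 contrast chose the genes.

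In F1 P5 germline cells, Mro was the gene of the 3 with the lower values in TBT. RMER6A in Mro intron 5 had 3.35, 14.7, 4.65 and 1.51 CPM in DMSO (libraries 43-4, 43-5, 44-1 and 48-4) and 0.362 to 1.65, median 0.883, in TBT. RLTR48C in intron 2 had 3.83, 10.3, 2.93 and 2.52 CPM in DMSO and 0.682 to 2.20 in TBT. At RLTR48C and RLTR20A4, which share their intron and most of their reads, all 7 TBT libraries lay below all 4 DMSO libraries, 2 of 33 loci beside 0.886% of all tested loci. Log2 differences were negative at all 8 Mro loci, from -2.25 (SE 0.51) at RMER6A to -0.73 at the first ORR1C1 locus, with a median of -1.72 beside 0.03 over all tested loci. None passed after adjustment by limma, whose lowest adjusted p among the members was 0.204 at RMER6A, although 6 Mro loci had an unadjusted p under 0.05. Of all loci tested, 13 of 122303 passed, or 0.0106%, all higher in TBT. The call turned on the method: edgeR's likelihood-ratio test on recovered reads and limma without the filter on low values each called the same 3 Mro loci lower (RLTR48C, RLTR20A4 and RMER6A). Over all loci the first called 390 of 122303, 83 of them lower, and the second 998 of 493550, 76 of them lower. Without DMSO library 48-4, limma called RMER6A.

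As a gene sum, Mro had 20.1, 66.3, 25.5 and 11.8 CPM in F1 P5 DMSO and 5.00 to 16.4, median 8.41, in TBT, so the groups overlapped at the lowest DMSO library. The log2 difference was -1.53 (SE 0.39) with an adjusted p of 0.310 by limma, and without library 43-5 it was -1.07. No gene of 16389 passed in this contrast (0%), with 1362 at an unadjusted p under 0.05. Smad4 averaged 109 ± 16.9 CPM in DMSO and 119 ± 11.01 in TBT, and Mex3c 8.37 ± 1.84 and 9.01 ± 2.64 (SD, n = 4 and 7). Sertoli cell genes also had lower mean levels in TBT in these germline libraries, with overlapping groups. Leaving out Dmrt1, which germ cells also express, 5 Sertoli genes with a locus summed to 74.4 ± 40.4 CPM in DMSO, from 33.0 to 123, and 32.2 ± 7.83 CPM in TBT, from 22.9 to 46.1, with all 5 above 0. The highest DMSO library was 43-5, the library with the highest Mro level. Interstitial genes summed to 25.4 ± 9.28 and 12.003 ± 6.26 CPM, and in F1 P6 cells the same Sertoli sum was 1057 to 1372 CPM. The part of these cells in the Mro values was not tested.

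The share of Mro exon 8 in F1 P5 was 36.5 ± 5.79% in the 4 DMSO libraries and 73.9 ± 13.6% in the 4 TBT libraries that reached 10 reads, with 3 TBT libraries left out. The libraries left out had 75% (6 of 8 reads), 33.3% (3 of 9) and 37.5% (3 of 8), so 2 of them lay within the DMSO range of 30.8 to 41.7%. With the minimum of 10 reads the exact two-sided permutation p was 0.0286, the smallest that 4 against 4 can give, and 0.171 after adjustment over the 12 tests. With all 7 TBT libraries the mean was 63.1 ± 21.2% and the exact permutation p was 0.0545. For Smad4 intron 1 the F1 P5 shares were 42.6 ± 3.03% in DMSO and 49.7 ± 4.08% in TBT (exact permutation p = 0.0152, adjusted 0.171, n = 4 and 7). Mex3c shares were 44.3 ± 12.996% and 42.1 ± 7.37% (exact permutation p = 0.730, n = 4 and 7). No share therefore passed the adjusted threshold.

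In F1 P4 cells the libraries of both exposures overlapped in all 3 genes. Mex3c exon 1 had 1.03, 3.74, 3.696, 4.19 and 4.12 CPM in DMSO and 1.02 to 4.28, median 2.77, in TBT. The first ORR1D1 locus of Smad4 had 4.13, 3.74, 4.39, 7.88 and 6.18 CPM in DMSO and 5.63 to 8.99, median 7.02, in TBT. Mro summed to 10.7 ± 7.37 CPM in DMSO (n = 5) and 5.26 ± 2.64 in TBT (n = 7), a log2 difference of -0.87 (SE 0.48) with an adjusted p of 0.756 by limma. Groups overlapped at all 28 loci tested, beside 0.386% of all loci without overlap. By limma 0 of 28 passed, and 0 of all 91621 loci tested (0%), with 6496 at an unadjusted p under 0.05, 0 by edgeR's quasi-likelihood test and 89 by its likelihood-ratio test. The 3 Smad4 loci of intron 1 had an unadjusted p under 0.05. Of 13798 gene sums 0 passed (0%), with 968 at an unadjusted p under 0.05. Beside these values, Leydig genes averaged 89.1 CPM in DMSO, from 6.94 to 214.8, and 15.6 in TBT, from 3.63 to 39.4. Interstitial genes averaged 26.3 CPM, from 2.52 to 59.4, and 4.71, from 2.34 to 8.24, so both lists overlapped between the groups. Not every somatic list was lower in TBT. Endothelial genes ran from 7.78 to 13.6 CPM in DMSO and 8.96 to 16.1 in TBT, and macrophage and blood genes from 0 to 6.40 and 0.999 to 16.9. The part of these cells in the Mro values was not tested.

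In F3 germline cells some libraries were shallow, but values of 0 also came from deeper ones. All Mex3c loci were at 0 in P4 DMSO 1 (4896693 reads) and in P5 TBT 8 (3549702 reads). LTR reads outside genes made up 2.05 to 12.1% of a library in P4 and 6.06 to 31.1% in P5. Leaving out the libraries under 2100000 reads still left 0 loci passing by limma in P4 and in P5. Mex3c exon 1 had 0, 0.978, 0.492 and 1.64 CPM in P4 DMSO and 0, 2.65, 4.93, 1.16 and 0 in P4 TBT, and 0, 0, 0.692 and 2.54 CPM in P5 DMSO and 0, 2.46, 2.57, 0 and 2.93 in P5 TBT. The first ORR1D1 locus of Smad4 had 2.54, 3.91, 3.94 and 3.74 CPM in P4 DMSO and 5.42, 9.79, 3.99, 7.92 and 1.36 in P4 TBT. The first ORR1C1 locus of Mro exon 8 was at 0 in 3 of 4 P4 DMSO libraries, in all 5 P4 TBT libraries and in all 4 P5 DMSO libraries, and had 0.957, 1.72, 1.44, 3.61 and 0.586 CPM in P5 TBT. In P5 every TBT library thus lay above every DMSO library at that locus, on a few reads each, and it fell under the low-value filter in both P4 and P5 and was not tested. Mro summed to 11.1 ± 6.86 CPM in P4 DMSO and 2.06 ± 2.37 in P4 TBT, and to 10.99 ± 6.26 and 11.9 ± 7.19 CPM in P5. The P4 difference of -3.05 on the log2 scale (SE 1.29) had an adjusted p of 0.863 by limma, and the median of all loci in that contrast was itself -0.69. Without the libraries under 2100000 reads the Mro difference was -1.55, which did not pass either, and the median of all loci was 0.37. By limma 0 of 27 loci passed in P4 and 0 of 30 in P5, beside 0 of 86412 (0%) and 0 of 105423 (0%) of all loci tested, with 1424 and 1066 at an unadjusted p under 0.05. edgeR's quasi-likelihood test called 0 loci in both and its likelihood-ratio test 4 and 3199. Loci without overlap made up 1.90% of all in P4 and 0.428% in P5, and 0 of the members tested in either. Gene sums passed for 0 of 14096 genes in P4 (0%) and 0 of 15921 in P5 (0%), with 262 and 168 at an unadjusted p under 0.05. For Smad4 intron 1 the share in P4 was 34.2 ± 11.8% in DMSO and 58.7 ± 15.7% in TBT (exact permutation p = 0.0857, adjusted 0.343, n = 4 and 4), and in P5 the adjusted exact p was 1.00.

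P5 was set against P4 within each generation, a contrast the choice of genes did not use. In F1, Mro rose in P5, by 1.18 on the log2 scale as a gene sum (SE 0.33, adjusted p = 0.00606 by limma), whereas Smad4 (0.04, SE 0.10, adjusted p = 0.747) and Mex3c (0.35, SE 0.23, adjusted p = 0.237) did not pass. Mro means went from 10.7 CPM in P4 to 30.9 in P5 in DMSO and from 5.26 to 9.12 in TBT, so both exposures had the higher mean in P5. Across all genes 25.3% passed as higher in P5. At single loci 4 of 30 tested passed, all in Mro and all higher, beside 17.0% of all tested loci. They were RLTR48C (0.89, SE 0.32, adjusted p = 0.0280 by limma), RLTR20A4 (0.82, adjusted p = 0.0445), RMER6A (1.12, adjusted p = 0.0261) and the first ORR1C1 locus of exon 8 (1.73, SE 0.52, adjusted p = 0.00941). The members' share of 4 in 30 is thus near the background, and their median log2 difference was 0.15 beside -0.11 for all loci. The Mro gene sum passed under every alternative tried and without any 1 library (adjusted p 0.00197 to 0.0249 by limma without each library in turn). The loci were less steady: without P5 DMSO 43-5, 1 passed, and without P4 DMSO 48-4, 2 did. How the calls over all loci moved without those libraries was not compared. With every library brought to the same total, 7 loci passed, the 4 above and the 3 of Smad4 intron 1 at 0.40 to 0.41, where 20539 of all 102168 loci passed as higher, so 7 of 30 is again near the background. That scaling also moved the share of higher loci among all calls from 45.7 to 65.6% and the median of all loci to 0.03. With the replicate block more member loci passed than the 4 above, where 43653 of all 101539 loci passed, 18646 of them higher. Sertoli genes without Dmrt1 averaged 28.0 CPM in P4 and 74.4 in P5 in DMSO, and 17.5 and 32.2 in TBT. The share of a library's LTR reads that lay outside genes was 1.83 to 2.51% in F1 P4 and 3.84 to 7.34% in F1 P5, without overlap. The part of either in the Mro rise or in the pathway values below was not tested.

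**Figure D4:**
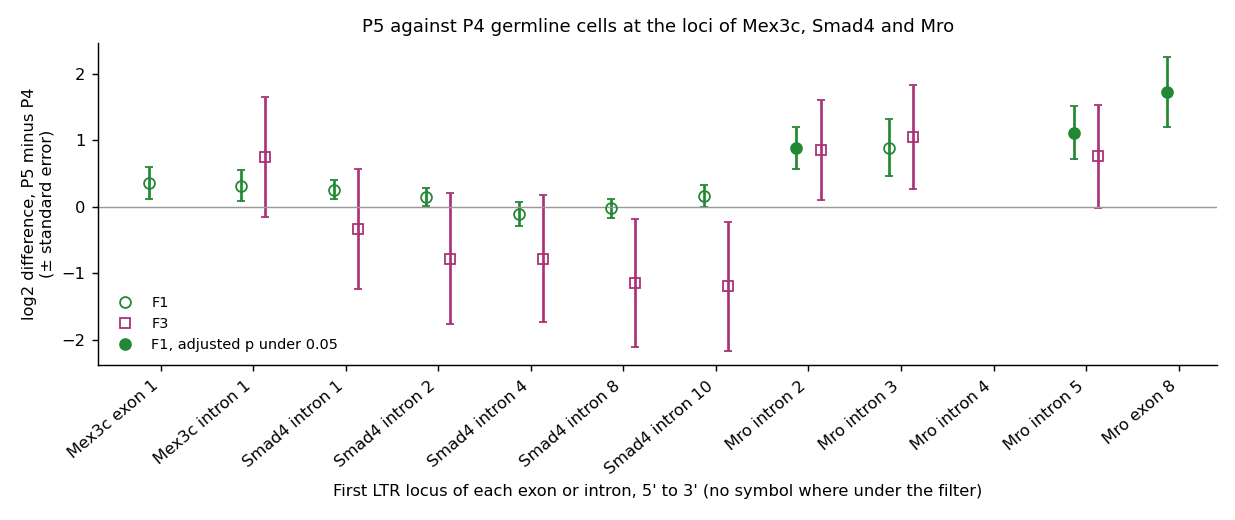
Difference of P5 and P4 on the log2(value + 1 unit) scale ± standard error at the first locus of each exon or intron, for F1 (circles; filled where the adjusted p by limma was under 0.05) and F3 (squares). The filled symbols, at 0.89, 1.12 and 1.73, are all in Mro, and the F3 errors are wider than those of F1.

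In F3, Mro was 1.48 higher in P5 than in P4 as a gene sum (SE 0.83), with an adjusted p of 0.424 by limma, so the difference did not pass. Smad4 was at -0.93 (SE 1.07) and Mex3c at 0.73 (SE 1.26). None of 28 member loci passed, beside 0.996% of all tested loci and 2.08% of gene sums. The 4 Mro loci tested were at 0.76 to 1.049 and the 20 Smad4 loci at -1.19 to -0.27. Without the libraries under 2100000 reads the Smad4 gene sum stood at 0.05, so its negative sign rests on those libraries.

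Of 49 genes of the TGF-beta and bone morphogenetic protein pathway other than Smad4, 35 held an LTR locus. In F1 P5 against P4, 12 of the 29 tested rose and 1 fell, and their median was 0.46 beside 0.11 for all genes, of which 43.5% passed in either direction and 25.3% as higher. The share that passed in either direction is thus near that of all genes, and the share that rose is above it. The 12 that rose were 9 of 12 receptors tested, 2 of 5 ligands (Inha and Bmp8b), 1 of 7 regulators and targets (Ltbp1) and 0 of 5 Smads. The 4 with the lowest adjusted p were receptors. Acvr2a, an activin receptor, rose by 1.21 (adjusted p = 1.35e-06 by limma) and Tgfbr1, a TGF-beta receptor, by 2.21 (adjusted p = 2.24e-06). Bmpr1b, a bone morphogenetic protein receptor, rose by 1.62 (adjusted p = 2.40e-05) and Acvr2b, another activin receptor, by 0.71 (adjusted p = 9.31e-05). Inha, the inhibin alpha subunit known from Sertoli cells, rose by 1.51 (adjusted p = 0.00631 by limma). The Sertoli sum without Dmrt1 was also higher in P5 in this contrast, at 28.0 and 74.4 CPM in DMSO and 17.5 and 32.2 in TBT, and its part in the pathway values was not tested. Smad2, a receptor-activated partner of Smad4, fell by 0.31 (adjusted p = 0.00176 by limma), but with the same total per library it was at -0.16 with an adjusted p of 0.0977. Under that scaling 13 of 29 passed as higher and 0 as lower, where 4507 of all 15041 genes passed as higher and 74.6% of all calls were higher. Smad4 itself did not pass. In F3, 1 of 29 rose (Bmpr2, 4.24, SE 0.83, adjusted p = 0.0136 by limma), from 0 in all P4 DMSO libraries and 0 to 1.64 CPM in P4 TBT, beside 2.08% of all gene sums that passed in that contrast. In the 6 contrasts of TBT with DMSO 0 of 26 to 32 tested pathway genes passed, with 0 to 3 at an unadjusted p under 0.05. Of the 4 MEX3 genes 3 held a locus (Mex3b, Mex3c and Mex3d) and 0 passed in any contrast. Mex3b, the member with the largest F1 P4 difference of TBT from DMSO, was at -1.31 with an adjusted p of 0.678 by limma.

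Of the 6 other genes of that stretch that held a locus, Elac1, Me2 and Mapk4 could be tested. Me2, a malic enzyme of mitochondria, fell by 0.57 in F1 P5 against P4 (adjusted p = 0.000167 by limma) and Mapk4, an atypical MAP kinase, by 0.63 (adjusted p = 0.00308), the direction opposite to Mro. With every library at the same total they were at -0.42 and -0.48 (adjusted p = 0.000254 and 0.0329 by limma), beside a median of 0.26 for all genes in place of 0.11. In F3 P6, Mapk4 averaged 28.8 ± 9.67 CPM in DMSO and 12.1 ± 0.699 in TBT, a log2 difference of -1.17 with an adjusted p of 0.118 by limma. Me2 averaged 80.5 ± 7.74 and 61.6 ± 9.45 CPM (-0.39, adjusted p = 0.456). In F1 P5, Elac1, a tRNA-processing enzyme, ran from 0.517 to 1.51 CPM in DMSO and 1.53 to 3.55 in TBT without overlap, a log2 difference of 1.26 (SE 0.43) with an adjusted p of 0.450 by limma. None of these neighbours passed in any contrast of TBT with DMSO.

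By Pearson correlation of gene sums over the 12 group means, among 9678 genes, the profiles most like Mex3c were those of Pcsk5 (0.995), Gm2415 (0.994) and Anxa6 (0.992). Those most like Smad4 were Pmp22 (0.991), Kdelc1 (0.991) and Osbpl9 (0.990), and those most like Mro were Ppt1 (0.996), Pak3 (0.993) and Pdpn (0.992). The 12 means come from separately scaled tables whose sums hold unequal numbers of profiles (2 to 5 for Mex3c), and most of the range of each profile is the step from germline to P6 cells.

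Methylated DNA in P6 cells was read in 100 bp windows. For F1, 10 windows were listed in the 3 genes, 6 in Smad4, 4 in Mro and 0 in Mex3c, and for F3, 7, all in Smad4. In F1 none of the 10 reached the count filter, and 11 of all 34559 windows tested passed, or 0.0318%. The fullest Smad4 window, chr18:73664701-73664800 in intron 4 with 2 CpG, had 6, 10 and 14 counts in DMSO and 6 to 19, median 11.5, in TBT. The fullest Mro window, chr18:73869001-73869100 in intron 2, overlapped RLTR20A4 by 7 bp and had 4, 8 and 15 counts in DMSO and 8 to 19, median 16, in TBT. In CPM both groups of the Mro window were level, at 10.1 and 9.98, and the Smad4 window was at 11.3 ± 3.19 in DMSO and 7.87 ± 1.51 in TBT. Another Smad4 window in intron 1, chr18:73691501-73691600 with 3 CpG, had 0, 0 and 2 counts in DMSO and 5, 6, 7 and 9 in TBT, where most TBT libraries were deeper. In CPM this window was at 0.730 ± 1.26 in DMSO and 4.90 ± 1.85 in TBT (SD, n = 3 and 4). The window was picked out after its values were seen, lies under the filter and was not tested. In F3, 3 of the 7 Smad4 windows were tested and 0 passed by edgeR's quasi-likelihood test, with a lowest adjusted p of 0.988, beside 0 of all 47563 windows tested (0%), where 2469 had an unadjusted p under 0.05 and the likelihood-ratio test also called 0. The fullest, chr18:73694001-73694100 in intron 1, had 18 to 29 counts, median 26, in DMSO and 12 to 30, median 24, in TBT, a log2 difference of -0.06. The windows listed in F1 and F3 did not coincide in these genes, and none lay on the Smad4 intron 1 or Mro exon 8 loci. A difference in methylation at those loci was thus not measured.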

How the data were processed

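RNA of P4, P5 and P6 cells (62 libraries) and methylated DNA of P6 cells (19 libraries) were used. The authors deposited 4 tables of normalised signal per RepeatMasker LTR locus, CPM after TMM scaling, from poly(A) RNA-seq aligned to GRCm38 with STAR and counted with a modified ERVmap, with germline and P6 libraries of each generation scaled apart. The authors also deposited raw counts of methyl-CpG binding domain (MBD) sequencing per 100 bp window, beside a score, the number of CpG in the window. In each library the smallest nonzero value was taken as 1 read, which turned 100% of values into whole reads within 0.01. Depth was 246520 to 8161548 reads at LTR loci and 701493 to 1913350 MBD counts per library.

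Loci inside the GENCODE gene bodies of Smad4, Mex3c and Mro were the members. The members and the lists were chosen with earlier results of these data known. LTR loci, and sums of the distinct profiles of a gene, were tested with limma 3.58.1 (trended variance, R 4.3.3) on log2(value + 1 unit), a unit being the CPM worth of 1 read (median library), where features averaged 5 units or more, with Benjamini-Hochberg adjustment over all tested features and a threshold of 0.05. A gene sum holds 2 to 20 profiles depending on the table, so sums were tested within a table only. MBD windows were tested with edgeR 4.0.16 (quasi-likelihood, TMM, filterByExpr). Shares of reads were compared with exact two-sided permutation tests (scipy 1.17.1), in libraries with at least 10 reads. The fits of single loci and of MBD windows were checked on simulated data with 200 changed features, drawn from the better-covered ones. The gene-sum fits were not simulated. Named in full were, per gene, the profile with the highest mean, each profile past the threshold in any contrast, and the Mex3c exon 1 locus. Alternatives were other pseudocounts, filters and scalings, edgeR on recovered reads, a replicate block and leaving out each library, and, chosen after seeing the data, leaving out the libraries under 2100000 reads and other minimums of reads for shares. No sequences are printed.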

Additional observations from a re-analysis of the deposited data

Results flagged for a closer look

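Of 144 groups of 4, 5 or 7 libraries checked at the named loci, 12 held a library far from the rest of its group, where 7.2 are expected at 1 in 20. At Mex3c exon 1, F1 P4 DMSO 43-4 was at 1.03 CPM (4 reads), beside 3.696 to 4.19 in the rest. At the first MLT1E1A locus of Mex3c intron 1, F3 P4 DMSO 4 was at 3.04 CPM (13 reads), beside 0 to 0.489. At the first ORR1D1 locus of Smad4, F3 P4 DMSO 1 was at 2.54 CPM (9 reads), beside 3.74 to 3.94. At RLTR48C and at RLTR20A4 of Mro intron 2, F1 P5 DMSO 43-5 was at 10.3 CPM (44 reads), beside 2.52 to 3.83, and this library also carried the most Sertoli marker RNA of its group. At RLTR51A_Mm of Mro intron 3, F3 P4 TBT 6 was at 1.16 CPM (7 reads) with the rest at 0. At RMER6A of Mro intron 5, F1 P4 DMSO 44-3 was at 3.94 CPM (16 reads) and F1 P4 TBT 45-5 at 2.59 CPM (13 reads). At the first ORR1C1 locus of Mro exon 8, F1 P4 TBT 47-3 was at 4.04 CPM (17 reads) and F3 P4 DMSO 1 at 0.848 CPM (3 reads). At the second ORR1C1 locus, F1 P4 TBT 45-5 was at 0.995 CPM (5 reads) and F3 P5 DMSO 4 at 0.231 CPM (1 read). All 12 lie in germline libraries and rest on 1 to 44 reads, so counting error alone is wide for most of them.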

How the results depend on the processing

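Of the member loci, 0 passed in F1 P5 TBT against DMSO, but 3 without the filter on low values and 3 with edgeR's likelihood-ratio test (13, 998 and 390 of all loci), and 0 to 1 leaving out each library (1 without DMSO 48-4). In F3 P6, 5 passed and 1 to 7 leaving out each library, counts from which nothing is read since that contrast chose the genes. In F1 P5 against P4, 4 passed, 1 without the filter, 0 under a filter of 20 units (which left 20 member loci, none of the 4 among them), 7 with the same total per library, 7 with the likelihood-ratio test, 8 with the replicate block, and 1 to 5 leaving out each library. All loci passing in that contrast were 37851, 39486 without the filter, 24630 of 42842 tested under a filter of 20 units, 31316 with the same total and 34248 with the likelihood-ratio test, and in F3 977, 6431 with edgeR's quasi-likelihood test, 9070 with its likelihood-ratio test and 6338 without the libraries under 2100000 reads (gene sums 323 and 1541). Numbers shared by P4 and P5 libraries were treated as names. Same-numbered deviations correlated from -0.0118 to 0.499 in F1 and -0.202 to 0.584 in F3. Most libraries of both generations, but not every one, were closest to their own number, so the main P5 against P4 fits may leave out a true pairing. The replicate block took all calls to 43653 in F1 and 2162 in F3, with 0 F3 member loci, and left the Mro gene sum as it was.

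The direction of several gene-sum differences turned, and in F3 germline cells also of large ones. Smad4 went from -0.93 to 0.053 in F3 P5 against P4 and from -1.13 to 0.11 in F3 P4 TBT against DMSO without the shallow libraries, and from 0.06 to -0.0131 in F1 P4 with the same total. In F3 P5, Mex3c went to 0.056 with a pseudocount of 4 units, and Mro to 0.021 with that pseudocount, 0.11 with the same total and 0.26 without the shallow libraries. The Smad4 share of F3 P5 went from -3.71 to 18.4 points with at least 20 reads, and with no minimum of reads that of F3 P4 was 32.7 points (exact permutation p = 0.0476). That p was not adjusted, and it brings in P4 TBT 9 at 100%, on 2 reads of intron 1 and 0 of intron 2. With the minimum of 10 reads the exact permutation p was 0.0857. Leaving out each library gave -0.0057 to 0.10 for Smad4 in F1 P5 against P4, and for TBT against DMSO -0.30 to 0.085 (Mex3c) and -0.027 to 0.17 (Smad4) in F1 P4, -0.034 to 0.20 (Mex3c) in F1 P5, -0.012 to 0.17 (Mex3c), -0.076 to 0.061 (Mro) and -0.037 to 0.057 (Smad4) in F1 P6, -1.43 to 0.71 (Mex3c), -0.46 to 0.53 (Mro) and -1.23 to 1.22 (Smad4) in F3 P5, and -0.25 to 0.038 (Mro) in F3 P6. The Mex3c share of F1 P5 ran from -6.04 to 3.03 points. The cause was not tested. Of the values for single genes and loci under the alternatives, 629 kept their direction and side of the threshold, 42 lost and 5 gained a pass, and 37 reversed. Under 20 reads lay behind 52.0 and 35.3% of member values in F1 P4 and P5, 67.3 and 65.3% in F3 P4 and P5, and 0.253 and 1.01% in F1 and F3 P6, although F1 germline libraries were deeper (3835481 to 6304053 reads) than F1 P6 libraries (2824806 to 3830400).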
